A study of Procambarus virginalis and Procambarus fallax with 9 samples.

Results

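The transcriptomes of 2 tissues of the parthenogenetic marbled crayfish, P. virginalis, were compared within the same animals: the hepatopancreas and the abdominal musculature of animals 2, 6 and 7. The animal number and the tissue in the sample titles selected 6 of the 9 RNA-seq libraries of the series, 3 of each tissue. The animals were of the Heidelberg laboratory strain and reproduce clonally, so that the 3 pairs are close to genetically uniform; no age is stated in the labels or the methods. The other 3 libraries were made from abdominal musculature of P. fallax, the sexually reproducing relative of P. virginalis, from females obtained through aquarium supply (animals 1, 3 and 4). They serve only as muscle libraries in which the genes selected below were not selected. Titles give 3 animals per species, whereas the series description counts 6 and 2.

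The hepatopancreas is the digestive gland of decapods. Its epithelium secretes digestive enzymes, takes up nutrients, stores lipids and minerals and detoxifies. The abdominal musculature consists mainly of the large flexor and extensor muscles that drive the tail flip, and its mRNA is known to be rich in transcripts of contractile and calcium-handling proteins. The deposited gene identifiers name scaffolds of a draft assembly and not proteins. The tissue labels could therefore not be checked against marker genes, and genes are described here by abundance, ratio, model length and origin of the gene model. In such bulk tissue, fewer cells of a type and less RNA per cell cannot be told apart.

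Total expected counts, the numbers of fragments that RSEM assigned to genes, ranged from 12947418 to 67369392 in hepatopancreas libraries and from 6001494 to 18661368 in muscle libraries. The hepatopancreas library of animal 2 was the deepest and the muscle library of animal 7 the shallowest. Read length differed between animals but was the same for both tissues of an animal. Abundance is given as TPM, which corrects for model length and adds up to the same total in every library, so that a dominant gene lowers the TPM of all others. With 3 pairs, an exact paired test by sign flips cannot give a p under 0.25, two-sided. This smallest value was reached by every paired difference below that had the same direction in all 3 animals.

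More genes were expressed in the hepatopancreas than in muscle of every animal. At a level of at least 1 TPM, 8091, 6635 and 7115 of 21773 gene models were detected in the hepatopancreas of animals 2, 6 and 7, against 4282, 3196 and 5531 in their muscle. The tissues did not overlap, and the means were 7280 ± 742 and 4336 ± 1168 genes (SD, n = 3 each). The number in hepatopancreas was 1.89, 2.08 and 1.29 times that in muscle of the same animal, on average 1.75 ± 0.413 (exact paired test, p = 0.25). Animal 7 had the smallest ratio, and without it the average was 1.98.

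The excess in hepatopancreas extended over all levels but was not the same at each. At 10 TPM or more there were 2588 ± 177 genes in hepatopancreas and 1153 ± 411 in muscle (n = 3 each), and the mean ratio was 2.42. At 100 TPM or more the numbers were 519 ± 9.17 and 238 ± 47.2. At 1000 TPM or more, where both transcriptomes have few members, they were 135 ± 5 and 95 ± 5.57, a mean ratio of 1.42. The animals thus differed little in their number of very abundant genes in either tissue.

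The difference was also present at equal depth. When every library was thinned at random to the 6001494 counts of the shallowest one, 9011, 7485 and 7556 genes with at least 3 counts were left in the hepatopancreas of animals 2, 6 and 7. In muscle there were 5619, 4713 and 6568. The difference was 2384 ± 1248 genes and was found in all 3 animals. Since the most abundant genes also take up part of the depth, the 10 most abundant genes of each library were left out and TPM was rescaled. The numbers at 1 TPM were then 8367 ± 925 in hepatopancreas and 6419 ± 1168 in muscle (n = 3 each). The ratio was smaller, 1.32 ± 0.194, and still above 1 in all 3 animals, although the ranges were now close, with 7524 genes in the lowest hepatopancreas library and 7463 in the highest muscle library.

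**Figure D1:**
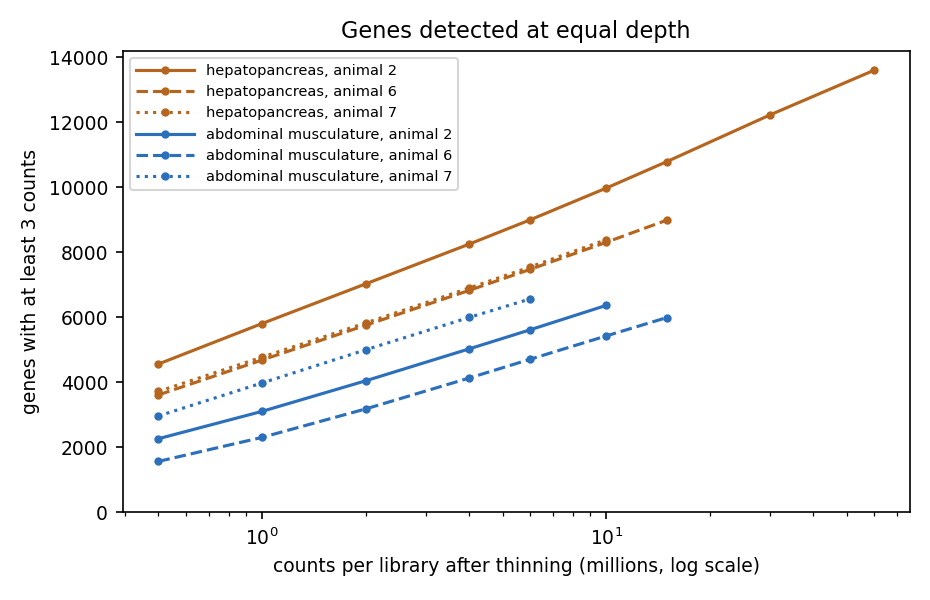
Genes with at least 3 counts (vertical axis) in each library after random thinning to a given number of counts (horizontal axis, log scale, in units of 1000000 counts), 1 line per library. At 1000000 counts the hepatopancreas libraries lie at 5812, 4690 and 4779 genes and the muscle libraries of the same animals at 3110, 2309 and 3984, and no line had levelled off at the greatest depth shown for it.

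The genes expressed in muscle were largely a subset of those expressed in hepatopancreas. Of the genes at 1 TPM or more in muscle, 91.6%, 89.1% and 82.9% also reached 1 TPM in the hepatopancreas of animals 2, 6 and 7. Conversely, 48.5%, 42.9% and 64.4% of the genes of the hepatopancreas reached 1 TPM in muscle. Accordingly, 4170, 3786 and 2531 genes passed this level only in the hepatopancreas of an animal and 361, 347 and 947 only in its muscle. The muscle of animal 7, with the broadest muscle transcriptome, held the most genes not seen in hepatopancreas.

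Over all 6 libraries, 9435 genes reached 1 TPM at least once and 2602 did so in every library. This common set made up 43.9% of the 5932 genes found in all 3 hepatopancreas libraries and 89.2% of the 2916 found in all 3 muscle libraries. It held 35.8%, 42.6% and 44.5% of the TPM in hepatopancreas (animals 2, 6 and 7) and 54.6%, 77.7% and 66.1% in muscle. A large part of the muscle share was held by 1 gene, maker-scaffold11143-snap-gene-2.2, with 18.9%, 38.2% and 24.8% of muscle TPM. The other 2601 genes, a set chosen after seeing the data, held 35.7%, 42.6% and 44.4% in hepatopancreas. In muscle they held 35.7%, 39.5% and 41.2%. These are shares of the full TPM, which still includes that gene. They were not rescaled, so they cannot show whether the tissues would still differ without it. There were 1445 genes at 1 TPM or more in all hepatopancreas and in no muscle libraries, and 184 with the reverse pattern. Of the genes found in all hepatopancreas libraries, 393 had no count in any muscle library, which allows up to 0.0832 CPM (counts scaled by the library total) over the 3 muscle libraries, from 3 counts of their total and for counting error only. Only 20 of the genes of all muscle libraries had no count in hepatopancreas, where the limit was 0.0313 CPM.

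A few genes dominated both transcriptomes, and muscle far more than hepatopancreas. The most abundant gene alone held 7.24%, 7.82% and 7.46% of the TPM in the hepatopancreas of animals 2, 6 and 7, and 18.9%, 38.2% and 24.8% in their muscle. The 10 most abundant genes held 38.3%, 34.3% and 41.8% in hepatopancreas against 73.3%, 68.8% and 65.2% in muscle. The difference was -31.0 ± 6.55 percentage points (hepatopancreas minus muscle, n = 3, exact paired test, p = 0.25), and no library of 1 tissue reached into the range of the other. The 100 most abundant genes held 76.2% ± 0.367 in hepatopancreas and 92.2% ± 2.72 in muscle.

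To reach 50% of the TPM, 22, 26 and 19 genes were needed in hepatopancreas and 4, 3 and 4 in muscle. For 90% the numbers were 419, 342 and 397 in hepatopancreas and 69, 72 and 111 in muscle. Evenness over all genes was summarised as the effective number of genes, the exponential of the Shannon entropy of the TPM shares, which is the number of equally abundant genes of the same entropy. It was 201, 205 and 185 in hepatopancreas and 34.4, 27.3 and 48.2 in muscle of animals 2, 6 and 7, a mean ratio of 5.73 ± 1.84 (n = 3, exact paired test, p = 0.25). By TPM the hepatopancreas libraries differed little from each other in this number. By expected counts, in which long genes weigh more, it was 215, 145 and 90.7 in hepatopancreas and 31.6, 21.2 and 48.9 in muscle, and the ratio in animal 7 was then 1.86. The size of the ratio depended on the top 10 genes. Without them the effective number by TPM was 453 ± 49.0 in hepatopancreas and 255 ± 72.2 in muscle, a mean ratio of 1.84. The difference in effective number was not smaller without them, 199 genes against 160 with them. By counts, the 10 leading genes took 47.8% ± 8.96 in hepatopancreas and 72.4% ± 4.48 in muscle (n = 3 each).

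**Figure D2:**
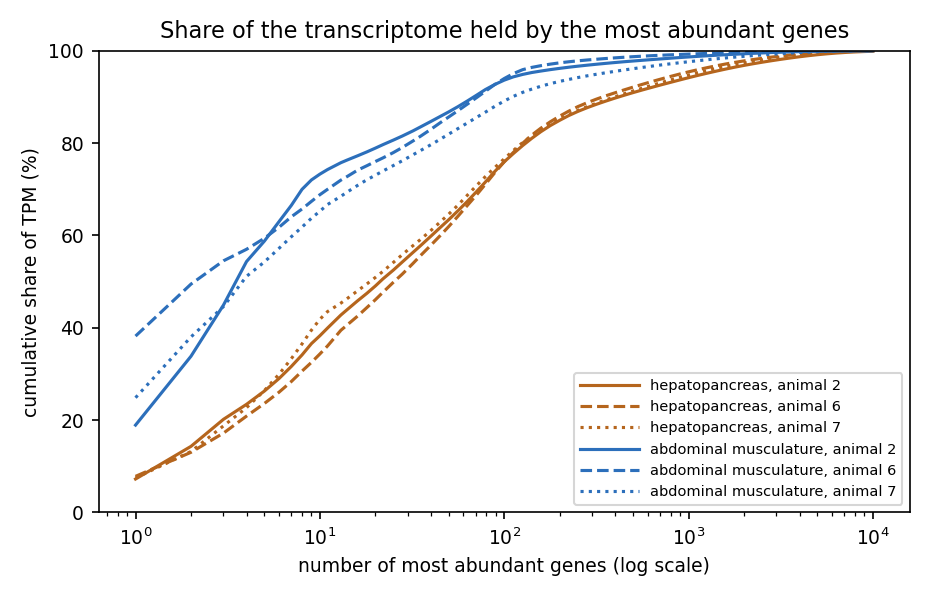
Cumulative share of TPM (vertical axis, %) held by the most abundant genes of each library, ranked within the library (horizontal axis, number of genes, log scale), 1 line per library. At 10 genes the hepatopancreas lines lie between 34.3% and 41.8% and the muscle lines between 65.2% and 73.3%.

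The leading genes were different in the 2 tissues. No gene was among the 10 most abundant in both tissues of any animal. Within a tissue, 5 genes were among the top 10 in all 3 hepatopancreas libraries and 8 in all 3 muscle libraries. At the top 100, in contrast, hepatopancreas and muscle of animals 2, 6 and 7 had 51, 48 and 49 genes in common, and 76 and 86 genes were shared by all libraries of hepatopancreas and of muscle.

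A core of 47 genes was among the top 100 of all 6 libraries. Their median model length was 532 nt, against 930 nt for the 9435 genes at 1 TPM or more in any library and 546 nt for all gene models, and 43 of them were at most 1000 nt long. They held 19.1%, 25.0% and 26.2% of the TPM in hepatopancreas of animals 2, 6 and 7 and 10.4%, 12.5% and 9.10% in muscle. On the TPM scale 45, 41 and 47 of them were higher in the hepatopancreas of these animals, with median log2 ratios of 0.58, 0.70 and 1.13, but relative to the TMM scaling of counts described below the direction was reversed, with a median log2 difference of -0.73. In the paired edgeR fit none of them was called and 2 had an unadjusted p under 0.05. DESeq2 called 1 higher and 2 lower in hepatopancreas, and limma on log2(TPM + 1) called 32, all higher, so that no direction can be given for this core.

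For a test of single genes, expected counts were rounded and fitted with edgeR's quasi-likelihood test, with the animal as a block and TMM factors, which scale libraries on the ratios of most genes after the extreme ones are trimmed. Of 6770 genes that passed the filter on low counts, 2342 differed at an adjusted p under 0.05 (34.6% of the genes tested), and 2989 had an unadjusted p under 0.05. A total of 1527 were higher (22.6%) and 815 lower (12% of the genes tested) in hepatopancreas, so that 65.2% of the calls were higher there. Without animal 6, 1529 genes were called. For 2330 of the called genes the sign was the same in the 3 animals, and 2277 of them had no overlap between the libraries of the tissues, against 51.2% without overlap among all genes tested. The differences were large. The median log2 difference was 4.13 among genes higher and -3.13 among genes lower in hepatopancreas, and 967 and 378 genes exceeded 10-fold. A difference of more than 100-fold was found for 502 genes higher and 163 genes lower in hepatopancreas.

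The split between higher and lower genes depended on the scaling. With TMM factors the median log2 difference over all genes tested was 0.20. With library sizes alone it was 1.61, and 87.9% of 2968 called genes were higher in hepatopancreas. On log2(TPM + 1) with limma the median was 1.22 and 89.7% of 3848 were higher. TMM factors lay between 1.40 and 2.01 in hepatopancreas and between 0.348 and 1.05 in muscle, where they were lowest in animal 6. That library was also the one with the most dominant single gene. Directions of weakly differing genes are therefore relative to the scaling, while no gene called both with TMM factors and in another of these fits had opposite signs.

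Of the most abundant genes that differed without overlap, the 2 higher and the 2 lower ones with the highest average log2 CPM are described. The gene maker-scaffold23923-snap-gene-0.29, with a model of 2835 nt, had 72.91, 18956 and 35307 TPM in the hepatopancreas of animals 2, 6 and 7 and 0.18, 1.13 and 0.48 TPM in muscle. It was thus very abundant in the hepatopancreas of animals 6 and 7, where it ranked 9 and 6, and ranked 642 in that of animal 2, with all muscle libraries far below. Its log2 difference was 11.68 (SE 2.29, adjusted p = 0.00183, edgeR). The gene evm-scaffold16910-processed-gene-0.0 (778 nt) had 32451, 78176 and 74599 TPM in hepatopancreas and 4.18, 5.55 and 0.72 TPM in muscle. It was the most abundant gene in the hepatopancreas of animals 6 and 7 and ranked 4 in animal 2, and its log2 difference was 12.57 (SE 1.81, adjusted p = 0.000197, edgeR). In the muscle of P. fallax animals 1, 3 and 4 it had 2.59, 356.84 and 6.86 TPM.

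The gene maker-scaffold11143-snap-gene-2.2 (1132 nt) had 454, 882 and 565 TPM in hepatopancreas and 189178, 381961 and 248492 TPM in muscle. It was the most abundant gene in muscle of every animal and ranked 205, 150 and 176 in hepatopancreas. The log2 difference was -10.28 (SE 2.46, adjusted p = 0.0067, edgeR), and without animal 2 the adjusted p was 0.164 at a log2 difference of -10.26, so this gene was then not called. In the muscle of P. fallax animals 1, 3 and 4 it had 212223, 57634 and 50830 TPM. The gene maker-scaffold11857-snap-gene-0.30 (1424 nt) had 0.03, 1.96 and 10.59 TPM in hepatopancreas, from 3, 42 and 167 counts, and 110812, 23878 and 65795 TPM in muscle. The groups were far apart, and the log2 difference was -16.35 (SE 3.05, adjusted p = 0.00131, edgeR).

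Tissue specificity was described from the ratio within each animal. A gene was counted as biased when TPM + 1 differed at least 10-fold in the same direction in all 3 animals. Because these genes were chosen on the libraries in which they were counted, their numbers and levels are a description without a test. Of the 9435 genes considered, 498 were hepatopancreas-biased and 93 muscle-biased, so that 84.3% of the biased genes belonged to hepatopancreas. At 2-fold the numbers were 2460 and 275, and at 100-fold 118 and 28. On TMM-scaled CPM + 1 the 10-fold numbers were 329 and 166, of which 66.5% belonged to hepatopancreas. Hepatopancreas-biased genes outnumbered muscle-biased genes on both scales, by a margin that depended on the scale.

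These genes carried most of the TPM in 5 of the 6 libraries, the exception being the hepatopancreas of animal 7. The hepatopancreas-biased genes held 66.1%, 57.3% and 49.4% of the TPM in the hepatopancreas of animals 2, 6 and 7 and 0.212%, 0.255% and 0.431% in their muscle. The muscle-biased genes held 0.0779%, 0.160% and 0.130% of the TPM in hepatopancreas and 81.1%, 75.0% and 75.6% in muscle. Genes of neither set were left with 33.8%, 42.6% and 50.4% of hepatopancreas TPM and 18.7%, 24.8% and 24.0% of muscle TPM. The muscle part was thus carried by fewer genes: the median of the mean TPM in the own tissue was 93.1 for hepatopancreas-biased and 147 for muscle-biased genes, and 66 and 30 genes of the sets exceeded 1000 TPM there.

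**Figure D3:**
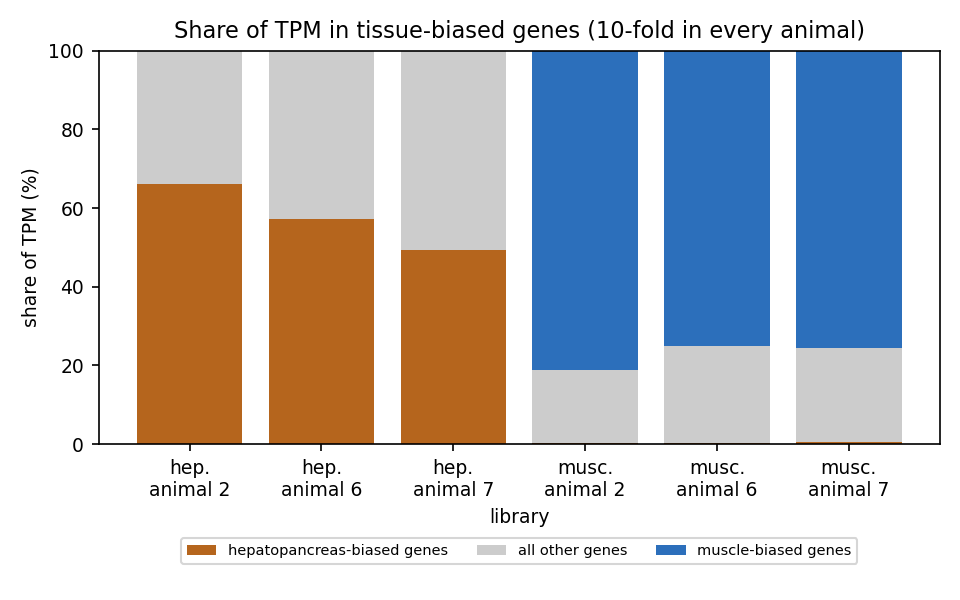
Share of TPM (vertical axis, %) held by hepatopancreas-biased genes, muscle-biased genes and all other genes in each of the 6 libraries (horizontal axis), stacked to 100%. The hepatopancreas-biased genes hold between 49.4% and 66.1% in hepatopancreas and at most 0.431% in muscle, and the muscle-biased genes hold between 75.0% and 81.1% in muscle and at most 0.160% in hepatopancreas.

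The share of biased genes differed between levels of abundance. Among the 2312 genes whose higher tissue averaged between 10 and 100 TPM, 11.2% were hepatopancreas-biased and 1.82% muscle-biased. Between 100 and 1000 TPM, 39.9% and 4.87% of 431 genes were biased to these tissues. Of the 184 genes above 1000 TPM, 35.9% and 16.3% were. The share of hepatopancreas-biased genes was thus slightly lower at the highest level than between 100 and 1000 TPM, while that of muscle-biased genes was highest there. At the same time no gene under 10 TPM was biased towards either tissue, since with 1 added to TPM a ratio of 10-fold needs at least 9 TPM.

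The 3 P. fallax muscle libraries were not used in this selection. In them the muscle-biased genes held 75.0%, 69.2% and 64.1% of the TPM (animals 1, 3 and 4). Animal 1 lay within the range of P. virginalis muscle and animals 3 and 4 below it, with reads of both species assigned to the same P. virginalis gene models. Of the 93 genes, 91 were at 1 TPM or more in all 3 libraries and 73 at 10 TPM or more. The hepatopancreas-biased genes held 0.432%, 2.17% and 2.63% of the TPM, and 103 of the 498 were at 1 TPM or more in all 3 libraries, while 54 had 0 TPM in each. The selection had already required every muscle-biased gene to be well above 1 TPM in each P. virginalis muscle library. The share of equally abundant muscle genes that were detected in P. fallax was not computed. The counts therefore describe detection in P. fallax muscle and say nothing about tissue bias there.

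The tissue difference was large compared with that between animals. Spearman's rho of TPM across genes, which are not independent replicates, was 0.863 to 0.874 between hepatopancreas libraries and 0.832 to 0.839 between muscle libraries. Between tissues it was 0.699 to 0.739, and the values for the same animal (0.712, 0.718 and 0.721) lay within this range. Of the sum of squares of log2 CPM over the genes tested, 83.6% was between tissues, 8.41% between animals and 8.04% in the remaining variation of the tissue difference between animals. The filter on low counts was set by tissue and not by animal, so the genes tested favour the part between tissues.

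The log2 ratio between the tissues was also compared between animals, over 6817 genes with a mean of at least 1 TPM. Pearson's r across genes was 0.839 between animals 2 and 6 and 0.804 between animals 2 and 7. It was highest, 0.884, between animals 6 and 7. The ratio had the same sign on the TMM scale in 74.6%, 71.3% and 79.1% of the genes for these pairs of animals. Both measures were highest for animals 6 and 7, whereas the median absolute difference of the log2 ratio was smallest for animals 2 and 6 (0.788, against 0.935 for animals 2 and 7 and 0.857 for animals 6 and 7). Opposite differences of 2-fold or more between animals were found for 288 of the 9435 genes, and of 10-fold or more for 2.

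The length of the gene models gave different pictures for the number of genes and for their abundance. The genes at 1 TPM or more had a median length of 995, 1019 and 1013 nt in the hepatopancreas of animals 2, 6 and 7, against 1146, 1128 and 1168 nt in muscle. The difference was -138 ± 25.5 nt (n = 3, exact paired test, p = 0.25), in the same direction in each animal and with no overlap of the tissues. At equal depth, the genes with at least 3 counts had median lengths of 1243 ± 61.5 nt in hepatopancreas and 1494 ± 52.7 nt in muscle. Among models of at most 500 nt, 1819 ± 223 were at 1 TPM or more in hepatopancreas and 882 ± 250 in muscle (n = 3 each). For models over 2000 nt the numbers were 1671 ± 182 and 1096 ± 371, so the excess in hepatopancreas was 2.06 times among the shortest and 1.53 times among the longest models (ratio of the means).

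Weighted by TPM, model length did not differ in the same direction in all animals. The TPM-weighted mean length was 947, 1077 and 1201 nt in hepatopancreas and 968, 986 and 1035 nt in muscle of animals 2, 6 and 7. The difference of 78.6 ± 94.5 nt was positive in 2 of 3 animals (n = 3, exact paired test, p = 0.5). Without the 10 most abundant genes of each library it was -107 ± 217 nt and its sign was reversed. Single genes also set the length classes: models over 1000 and up to 2000 nt held 23.9% ± 2.50 of the TPM in hepatopancreas and 46.7% ± 5.73 in muscle, and without the top 10 genes 23.9% ± 1.69 and 19.3% ± 5.90 (n = 3 each). The most abundant muscle gene, maker-scaffold11143-snap-gene-2.2, is a model of this class.

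The tissue ratio itself decreased weakly with length. Across the 6817 genes, Spearman's rho between model length and the log2 ratio of TPM + 1 was -0.161, -0.0987 and -0.151 in animals 2, 6 and 7, on average -0.137 ± 0.0335. Genes are not independent replicates, and no p is given. In the shortest quintile of the genes, 141 to 453 nt long, the median log2 ratio was 1.81, 1.74 and 1.23 in these animals. In the longest quintile, from 2226 nt, it was 1.10, 1.34 and 0.58. On TMM-scaled CPM + 1 the medians were 0.28, 0.22 and 0.17 in the shortest and -0.04, 0.20 and -0.01 in the longest quintile. The mean rho was then -0.0716. The relation was thus weak on TPM + 1 and weaker on this measure, in which 1 is added to values not corrected for length. The edgeR differences below, also with TMM factors, had medians of 0.81 in the shortest and 0.08 in the longest quintile of the genes tested. On TPM + 1 the mean rho was -0.0987 among models over 500 nt. Within single classes of gene models, which are introduced below by the prefix of their identifiers, it was -0.152 for snap, -0.102 for snap_masked, -0.0867 for maker-snap and -0.0737 for est2genome models. It was -0.0417 for evm models, with -0.0131 in animal 6, and 0.0167 for the 56 protein2genome models, so the relation was not found in every class.

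**Figure D4:**
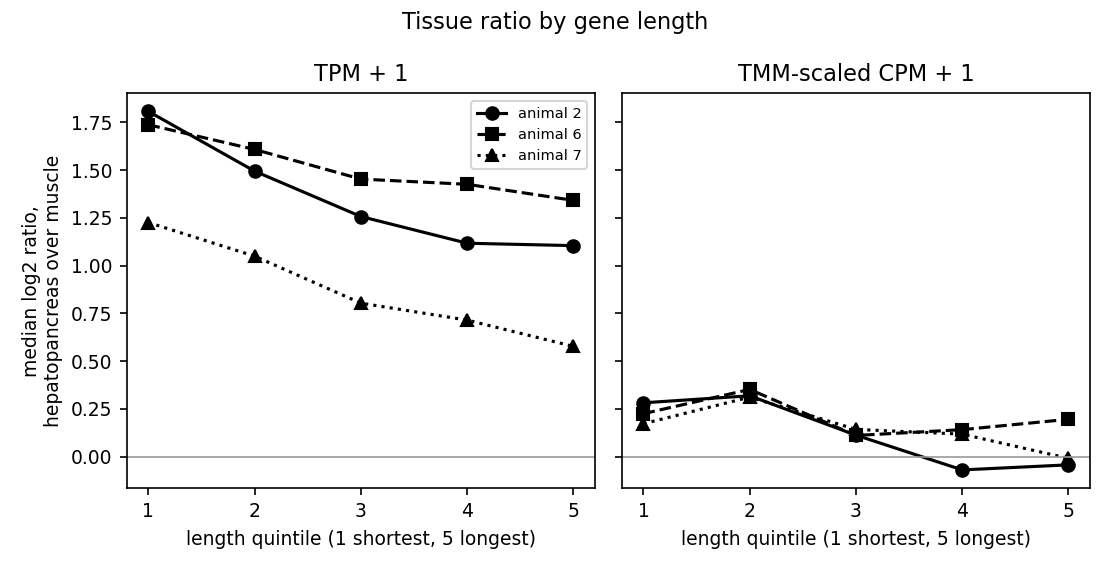
Median log2 ratio of hepatopancreas over muscle (vertical axis) by quintile of gene model length (horizontal axis, 1 shortest to 5 longest) in animals 2, 6 and 7, for TPM + 1 (left) and TMM-scaled CPM + 1 (right). On the left the medians decrease from between 1.23 and 1.81 in the shortest quintile to between 0.58 and 1.34 in the longest, and on the right they stay between -0.07 and 0.35.

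Among the edgeR calls the share of higher genes decreased with length, while the share of lower genes was smallest among the shortest. Of the tested genes in the shortest quintile (141 to 666 nt), 29.99% were higher and 7.15% lower in hepatopancreas, with a median log2 difference of 0.81. In the longest quintile (2662 to 24632 nt), 15.1% were higher and 12.3% lower, with a median of 0.08. Over all genes tested, 22.6% were higher and 12% lower. The fragment length implied by the deposited effective lengths, which enters TPM most for short models, was 167, 173 and 183 nt in hepatopancreas and 181, 173 and 183 nt in muscle of animals 2, 6 and 7. It differed between tissues mainly in animal 2, and with 1 effective length per gene in all libraries the mean rho was -0.144.

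The origin of the gene models, given by the prefix of the identifiers, also differed in abundance. The prefix est2genome denotes models derived from aligned transcripts, protein2genome models derived from aligned proteins, evm models combined from several lines of evidence and snap models from ab initio prediction, which were kept with the prefix maker where other evidence supported them. Models with the evm prefix held 35.9% ± 1.22 of the TPM in hepatopancreas and 20.9% ± 2.23 in muscle (n = 3 each). Models from aligned transcripts held 3.25%, 5.17% and 9.44% in the hepatopancreas of animals 2, 6 and 7 and 0.338%, 0.283% and 0.363% in muscle. Without the most abundant of them in each library, they held 1.59%, 2.86% and 3.71% in hepatopancreas and 0.172%, 0.119% and 0.257% in muscle. Both classes were higher in the hepatopancreas of every animal. Ab initio models without the maker prefix held 9.86%, 9.69% and 11.4% in hepatopancreas and 34.9%, 23.1% and 27.7% in muscle. In muscle, most of the share of this class was held by its 2 most abundant models, taken in each library separately. They held 0.833%, 2.25% and 3.65% in hepatopancreas and 24.3%, 16.3% and 19.7% in muscle. The rest of the class held 8.07% ± 0.840 in hepatopancreas and 8.43% ± 1.92 in muscle, as shares of the full TPM. That total still includes the 2 models. The shares were not rescaled, so they cannot show whether the tissues would still differ without these models.

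By number, the calls were set against those over all genes tested, of which 22.6% were higher and 12% lower in hepatopancreas. Of 250 tested transcript-derived models, 36.4% were higher and 6.00% lower in hepatopancreas by edgeR, of 1042 snap models 27.4% and 7.29%, and of 696 snap_masked models 27.3% and 9.77%. Of 3278 maker-snap models, 21.9% were higher and 14.4% lower, and of 1463 evm models 16.4% and 12.4%. Each of these classes had more higher than lower calls, and the excess was smallest for evm models. The median model length over the whole annotation was 484 nt for transcript-derived, 390 nt for snap, 387 nt for snap_masked, 1139 nt for maker-snap and 1407 nt for evm models, so that origin and length cannot be told apart in these counts.

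**Figure D5:**
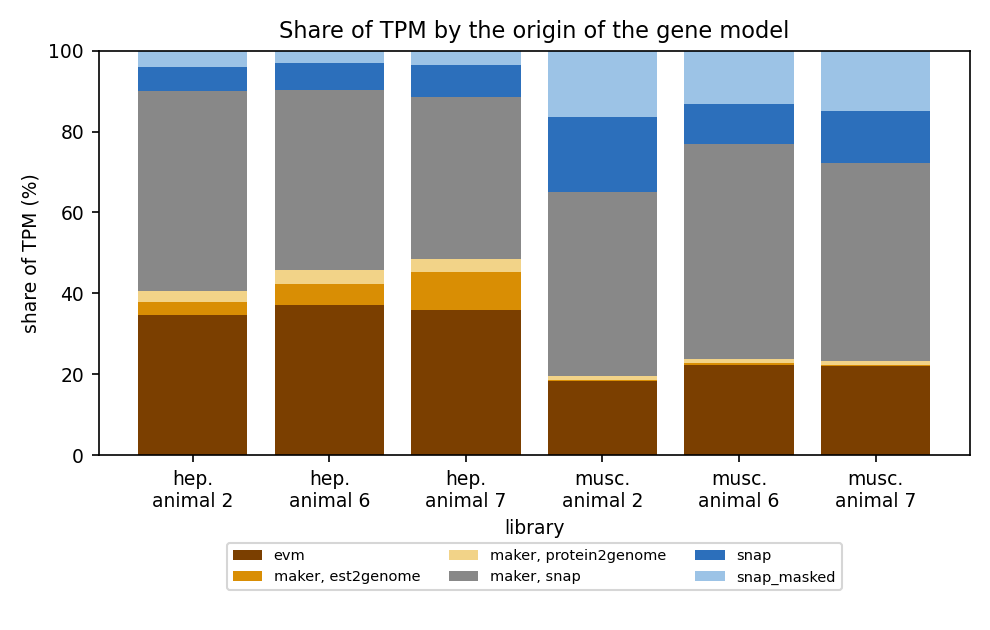
Share of TPM (vertical axis, %) by the origin of the gene model in each of the 6 libraries (horizontal axis), stacked to 100%; evm, maker with est2genome, maker with protein2genome, maker with snap, snap and snap_masked are the prefixes of the identifiers. The evm share is 34.7% to 37.1% in hepatopancreas and 18.3% to 22.4% in muscle, and the snap and snap_masked shares together are 9.69% to 11.4% in hepatopancreas and 23.1% to 34.9% in muscle.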

How the data were processed

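Total RNA was extracted from frozen tissue with Trizol, treated with DNase and made into TruSeq RNA v2 libraries. The submitters' processing notes name HISAT2 2.0.4 and RSEM 1.2.30. Genome build, annotation release and strandedness are not stated for these libraries in the sources used here. The authors deposited 1 RSEM gene table per library. Expected counts are estimated fragments per gene, deposited without normalization, and between 6.46% and 30.9% of the genes of a library analysed here had a count that was not whole. TPM was computed by the authors with RSEM from expected counts and effective lengths. The lengths and effective lengths of gene models were deposited in the same tables; 70.0% of the lengths are multiples of 3. Deposited FPKM, posterior means and intervals were not used, nor were the P. fallax libraries in any fit.

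Expected counts were rounded and tested with edgeR 4.0.16 in R 4.3.3 (quasi-likelihood test, animal plus tissue, TMM factors, filterByExpr, Benjamini-Hochberg adjusted p under 0.05), and the step was first tested on simulated data. Measures per library were compared by exact two-sided sign flips over 3 animals. Ratios used a pseudocount of 1, and thinning used 10 random draws. Other steps used Python 3.11.15, NumPy 2.4.6, SciPy 1.17.1 and pandas 2.3.3. Alternatives were no block, DESeq2 1.42.0, limma 3.58.1, other scalings, filters, folds and pseudocounts, and leaving out each animal. Named genes are the 2 higher and 2 lower genes with the highest average log2 CPM among those called without overlap between tissues. Members and gene sets were chosen with earlier results of these data known.

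The titles give both tissues of an animal the same number, so the libraries are paired. After the tissue mean was subtracted, log2 CPM correlated across genes with r = -0.0736, 0.257 and -0.0702 within animals 2, 6 and 7, and with -0.238 to 0.226 between tissues of different animals. Limits for counts of 0 cover counting error alone, because reads that carry no molecular identifier are not independent molecules. Methylation and chromatin data were not analysed here.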

Additional observations from a re-analysis of the deposited data

Results flagged for a closer look

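Hepatopancreas-biased genes held a larger share of TPM in 2 muscle libraries of P. fallax, which entered no comparison of the tissues, than in any muscle library of P. virginalis. The share was 2.17% in P. fallax animal 3 and 2.63% in animal 4, and 0.432% in animal 1, against 0.212% to 0.431% in P. virginalis muscle. The genes had been selected for low levels in the P. virginalis muscle libraries themselves. In animals 1, 3 and 4, 82, 313 and 167 of the 498 genes were above every P. virginalis muscle library. By more than 10-fold, with a floor on the P. virginalis level, it was 10, 94 and 12 genes. The same counts were not made over all genes, so they are not read as particular to this set. The 10 leading genes of the set in each library held 89.7%, 91.1% and 96.0% of the share in animals 1, 3 and 4. No hepatopancreas of P. fallax was analysed here, and the cause of the higher shares was not tested.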

How the results depend on the processing

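Without the replicate block 2599 genes were called, 2287 of them shared with the 2342 and none opposite in sign, and 63.9% were higher in hepatopancreas. The count was 3848 with limma on log2(TPM + 1) and 3890 on log2(TPM + 0.1), and 1529 to 2579 with 1 animal left out. The share of calls higher in hepatopancreas was 61.6% with DESeq2, 87.9% with library sizes alone, 68.0% without the filter, 68.6% against a log2 difference of 1, 89.7% and 89.6% with limma on the larger and the smaller pseudocount, and 59.9% to 67.8% with 1 animal left out. Without the block and 1 animal, chosen after seeing the data, it was 60.8%, 67.5% and 68.6%. The ratio of expressed genes was 2.42 at 10 TPM, 1.32 after rescaling without the top 10 genes (chosen after seeing the data), and 1.59 to 1.98 with 1 animal left out. The dominance difference was -19.8 percentage points for the top gene, -16.1 for the top 100, and -34.7 to -29.0 for the top 10 with 1 animal left out. The ratio of effective numbers was 1.84 without the top 10 genes and 4.84 to 6.68 with 1 animal left out. The length difference was 418 nt weighted by counts, -107 nt without the top 10 genes, -138 nt as the median over genes at 1 TPM, and 34.8 to 129 nt with 1 animal left out. Numbers of hepatopancreas- and muscle-biased genes were 1042 and 177 with a pseudocount of 0.1, 2460 and 275 at 2-fold, 118 and 28 at 100-fold, 329 and 166 on TMM-scaled CPM, and 532 to 691 and 95 to 126 with 1 animal left out. With both TMM-scaled CPM and a pseudocount of 0.1, chosen after seeing the data, 577 genes were hepatopancreas-biased and 271 muscle-biased. At 10-fold on TPM + 1, hepatopancreas- and muscle-biased genes held mean shares of 57.6% and 77.2% of the TPM in their own tissue. These shares were 74.1% and 80.6% at 2-fold, 45.3% and 72.8% at 100-fold, and 58.0% to 63.4% and 78.0% to 79.3% with 1 animal left out. The mean length rho was -0.0716 on TMM-scaled CPM, -0.0867 for maker-snap models and -0.0987 over 500 nt, the last 2 settings chosen after seeing the data, and -0.156 to -0.125 with 1 animal left out. The mean difference in the TPM share of the genes common to all libraries was -25.2 percentage points. It was -28.3 to -20.2 with 1 animal left out. It was 2.09 with the most abundant muscle gene left out of the set but kept in the total TPM. The shares were not rescaled, so this change of sign may not hold for the remaining TPM. Both alternatives were chosen after seeing the data. Among the alternatives that kept the named genes, only leaving out animal 2 changed a call. This was the call of maker-scaffold11143-snap-gene-2.2, with or without the block. A fit without the 10 most abundant genes of each library did not contain the named genes and could not test them. For changed values whose setting does not itself alter the genes, samples or weights used, the cause was not tested. Depth limits mainly the muscle library of animal 7, where 3 counts correspond to 0.500 CPM.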

Other observations

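Genes on the same scaffold were compared for the direction of their calls. Among the genes tested, 1274 scaffolds held at least 2, which gives 3807 pairs of genes on the same scaffold. Both genes differed between the tissues in 620 pairs, and in 449 of these (72.4%) they had the same direction as each other. The split into 1527 higher and 815 lower calls alone would give 54.6% if directions were independent. The difference was not tested. Pairs on the same scaffold share genes, and neighbouring models of a draft annotation can be parts of a single gene or receive the same reads, so the pairs are not independent. The order and distance of the models were not analysed here.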
